A study of Mus musculus with 6 samples.

Results

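The genes described here encode the cytosolic factors that start and elongate protein chains on the ribosome, together with their closest relatives and regulators by name. Members were all genes whose symbol begins with Eif1 to Eif6 or with Eef1 or Eef2, except the eIF2 kinases named Eif2ak, that have a probe set assigned to a single gene symbol. Each gene was represented by its brightest such probe set over the 6 arrays, which gave 57 genes of the 19937 measured in the series. RefSeq lists 67 protein-coding genes with such symbols. The other 10, which include Eif1, Eif2s1, Eif3g, Eif4g1, Eef1g and Eif4ebp3, had no probe set with a single symbol and were not analysed here.

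RNA of whole islets from 16-week-old male mice on a C57BL/6 background was hybridized to Affymetrix Mouse Gene ST arrays, with a separate array for each sample. The 3 control samples carried Ins2-rtTA, the only transgene that their genotype labels name. A figure legend of the study gives tetO-Sox17 as the control for protein measurements at the same doxycycline time, and the labels were followed here. In the 3 Sox17-GOF samples Ins2-rtTA was combined with tetO-Sox17, so that doxycycline turned on Sox17 in insulin-producing cells. Both genotypes received doxycycline in food and water for 24 hours, and the methods describe the 3 samples of each as independent biological replicates. The mice had been outbred before at least 3 generations of backcrossing. The Ins2 promoter drives rtTA in insulin-producing cells, while the RNA came from all cells of the islet preparation, so fewer cells of a type and less RNA per cell cannot be told apart.

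Translation begins when eIF2, loaded with GTP and the initiator tRNA, joins the small ribosomal subunit with eIF1, eIF1A, eIF3 and eIF5. The eIF4F complex, made of the cap-binding protein eIF4E, the scaffold eIF4G and the helicase eIF4A, recruits this unit to the capped mRNA, and eIF4B and eIF4H stimulate the helicase. eEF1A then delivers each aminoacyl tRNA and eEF2 moves the ribosome along. β cells translate proinsulin at a high rate that changes with glucose, and phosphorylated eIF2 and the eIF4E-binding proteins restrain that rate under stress. The arrays measured mRNA, not the amount, the phosphorylation or the activity of these proteins.

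Sox17 was higher in each Sox17-GOF sample than in each control sample, by 0.67 on the log2 scale (limma, adjusted p = 0.00876, n = 3 per group). An exact two-sided permutation test returned p = 0.10, the lower limit for 3 samples against 3. Array medians lay between 6.31 and 6.41 on the log2 scale. Sox17 itself was not bright, with a mean log2 signal of 5.64 in control and 6.31 in Sox17-GOF islets. None of the 11 islet endocrine markers had a mean below 4.63, the 20th percentile of all values. Of these markers 3 fell at an adjusted p under 0.05 from limma (Ucn3, Slc2a2 and Pdx1) and none rose. By that rule 2.44% of all genes fell and 2.77% rose, and the counts of the further lists below stand beside these shares. None of the 9 acinar markers lay below that percentile either, and the brightest had a mean of 13.72. The summed linear signal of the islet markers did not overlap, since it was at least 67352 and at most 69225 on control arrays but between 58925 and 64132 on Sox17-GOF arrays, and its part in the results was not tested. That of the acinar markers ranged from 55178 to 66203 in control and from 38054 to 73264 in Sox17-GOF islets. Of the acinar markers 1 fell, the transcription factor gene Bhlha15 (log2 fold change -0.64, adjusted p = 0.0312 from limma), and none rose. Acinar transcripts were thus plentiful in both groups. Of 7 immediate early genes, which tissue handling can induce, 1 rose (Egr1, log2 fold change 1.15) and none fell, and their part in the results was not tested.

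At an adjusted p under 0.05 from limma, 1 of the 57 members was higher in Sox17-GOF islets, against 2.77% of all genes, and none was lower, against 2.44% of all genes. In either direction 5.21% of all genes passed, so that the count among the members was near the background and says nothing particular about them. The member that rose was Eif4h. At an unadjusted p under 0.05, 5 members were higher and 2 were lower, while 8.93% of all genes were higher and 10.7% were lower by the same rule. The methods' t-test at their fold of 1.3 and unadjusted threshold counted 1 member higher, again Eif4h, and 0 lower.

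The sizes of the differences were also near those of all genes. The median log2 fold change of the 57 members was 0.01, and it was -0.01 over all genes. Its median size without regard to sign was 0.10 for the members and 0.11 for all genes. For 46 of the 57 members the log2 fold change was smaller than 0.2 in either direction. The 95% interval lay within a 1.5-fold difference in both directions for 52 members (91.2%), and for 83.6% of all genes. The 5 members whose interval reached past 1.5-fold were Eif4h, Eef1akmt1, Eif5a2, Eif4ebp1 and Eef1a2. The groups did not overlap for 7 members that were higher and 10 that were lower, beside 11.3% and 14.2% of all genes.

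**Figure D1:**
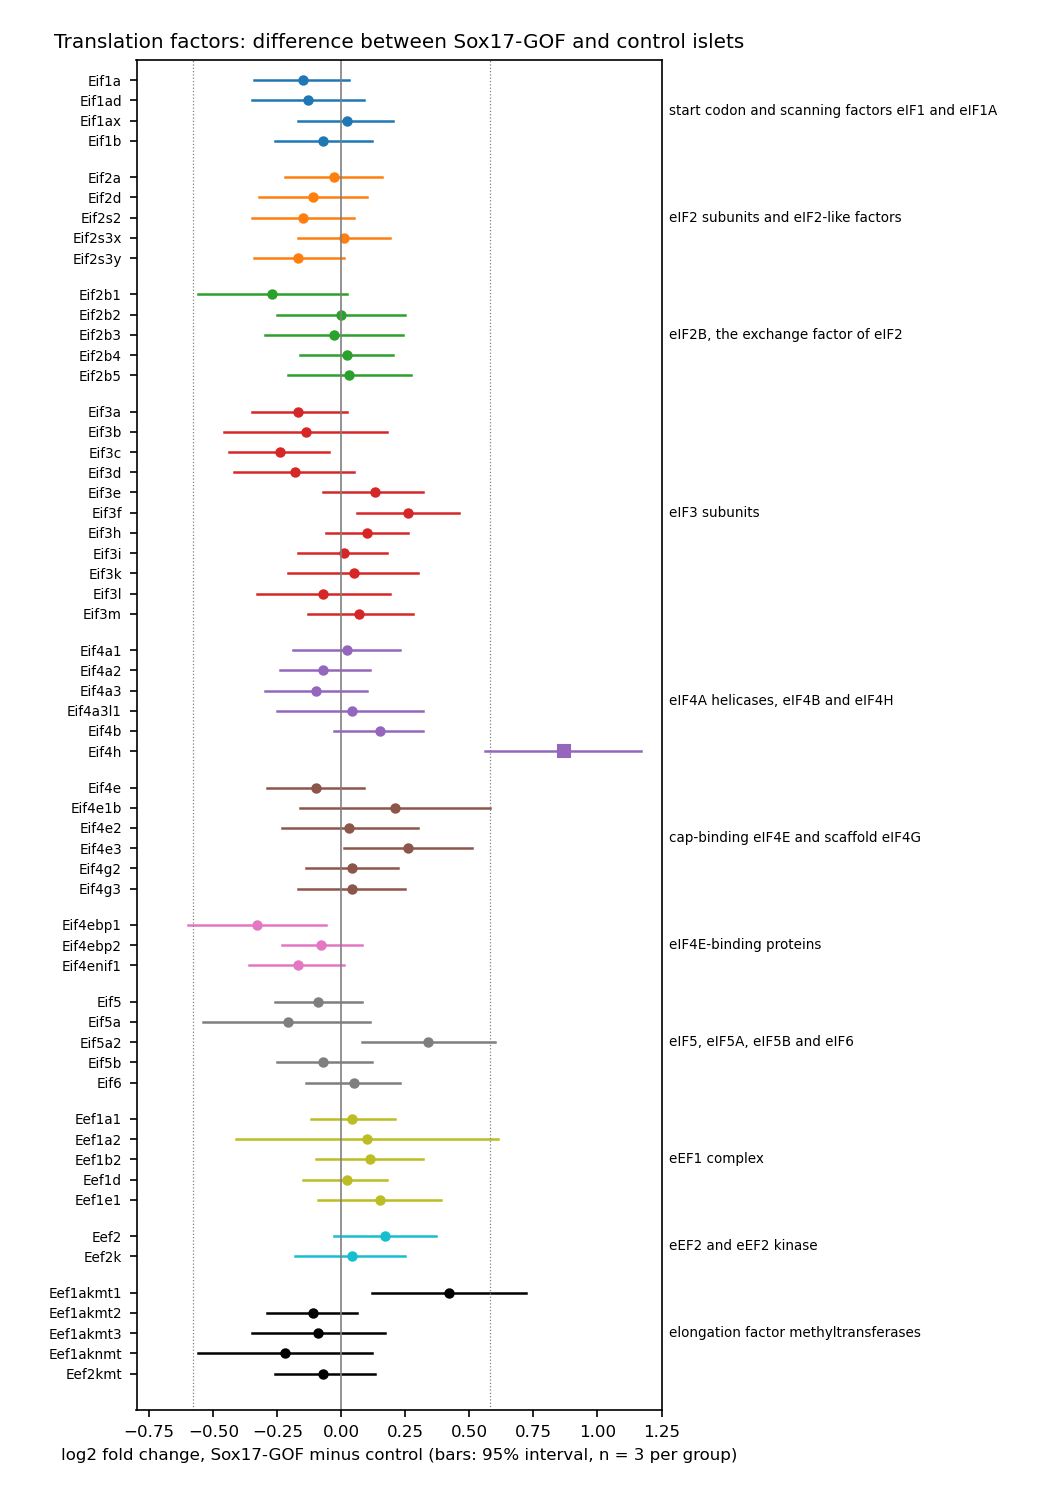
Log2 fold change between Sox17-GOF and control islets (horizontal axis) of the 57 translation factors, grouped by role, with limma's 95% interval as bars and 3 arrays per group; dotted lines mark a 1.5-fold difference and the square a gene with an adjusted p under 0.05. Eif4h stands at 0.87, while the other 56 members lie between -0.33 and 0.42.

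Eif4h encodes a small RNA-binding protein that stimulates the eIF4A helicase in unwinding the leader of an mRNA. Its log2 signal was 8.78, 8.46 and 8.68 in control islets and 9.75, 9.39 and 9.39 in Sox17-GOF islets. All 3 Sox17-GOF samples lay above all 3 controls. The log2 fold change was 0.87 (standard error 0.13, 95% interval 0.56 to 1.17), a 1.83-fold higher level, with an adjusted p of 0.0125 from limma. Without control replicate 2, the lowest array, the log2 fold change was 0.78 and the call was lost (adjusted p = 0.0557 from limma). A fold change for Eif4h had been listed in the study's supplement, so that it was named here with that knowledge.

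The other members of this group were the eIF4A helicases and eIF4B, and none of the 5 passed the threshold. Eif4b, whose product resembles eIF4H in its RNA-binding part and also stimulates eIF4A, had log2 signals of 10.67, 10.71 and 10.63 in control and 10.84, 10.87 and 10.74 in Sox17-GOF islets. These groups did not overlap either, but the log2 fold change was only 0.15 (95% interval -0.03 to 0.32, adjusted p = 0.35 from limma). The change of Eif4h exceeded that of Eif4b by 0.72 on the log2 scale, and in all 3 Sox17-GOF arrays the gap between the 2 genes lay on the same side of the controls (exact permutation test, p = 0.10, two-sided, the smallest possible, so that no difference could pass the threshold by this test).

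Eif4a1 and Eif4a2 encode the helicases of eIF4F, and Eif4a3 encodes the helicase of the exon junction complex. Their log2 fold changes were 0.02 for Eif4a1, -0.07 for Eif4a2 and -0.10 for Eif4a3, with 95% intervals of -0.19 to 0.23, -0.24 to 0.11 and -0.30 to 0.10. A doubling or a halving of any of these mRNAs thus lies outside the intervals. A pair of further probe sets for Eif4a1 gave log2 fold changes of 0.00 each. The retrocopy-like gene Eif4a3l1 had the dimmest probe set of all members, with a mean log2 signal of 4.14, below the 20th percentile, and its difference of 0.04 is that of a signal near background. At the other end, the probe set of Eef1a1 had a mean of 13.6.

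The promoter windows of Eif4h and Eif4b are shown because Eif4h was the called member and eIF4B acts on the same helicase. Both come from RefSeq on GRCm38.p6 and run from 250 bases before the listed start to the 50 bases from the start on, which are in capitals. That of Eif4h is chr5:134639360-134639659 on the minus strand and that of Eif4b chr15:102073523-102073822 on the plus strand.
Eif4h: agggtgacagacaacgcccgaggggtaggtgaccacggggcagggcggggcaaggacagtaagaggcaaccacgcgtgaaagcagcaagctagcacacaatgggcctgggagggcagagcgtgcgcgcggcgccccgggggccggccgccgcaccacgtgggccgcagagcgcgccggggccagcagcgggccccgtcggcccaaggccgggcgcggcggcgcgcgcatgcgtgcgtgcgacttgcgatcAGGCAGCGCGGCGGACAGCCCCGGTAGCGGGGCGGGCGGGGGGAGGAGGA
Eif4b: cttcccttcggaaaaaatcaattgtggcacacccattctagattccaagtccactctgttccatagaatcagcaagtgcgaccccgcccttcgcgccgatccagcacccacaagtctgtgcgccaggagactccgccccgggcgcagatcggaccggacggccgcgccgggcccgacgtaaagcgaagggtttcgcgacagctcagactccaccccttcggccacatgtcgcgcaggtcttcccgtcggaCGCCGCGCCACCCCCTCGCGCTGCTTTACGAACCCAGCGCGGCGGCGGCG
The window of Eif4h is 76% G and C, that of Eif4b 65%, and the median over all promoters of the table is 52.7%. Neither holds AACAAT, the SOX-type letters searched for, on either strand, nor TGATGNAA, the composite letters that C/EBP and ATF4 share. Without its first A, the shorter string ACAAT does occur in both windows. It lies within CACAATGG in that of Eif4h and on the opposite strand in that of Eif4b. The shorter string was not counted over all promoters, so a SOX-type site in either window is not excluded. Of all 32851 promoters, 10.7% hold AACAAT and 3.97% the composite letters. Of the 44 members with a promoter in the table, 4 hold AACAAT (Eef2k, Eif2s3y, Eif3b and Eif5a) and 2 the composite letters (Eef2k and Eif2s3x). None of these 5 genes passed the threshold.

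The cap-binding proteins and their scaffolds comprised 6 members, and none passed the threshold. Eif4e, which encodes the main cap-binding protein, had a log2 fold change of -0.10 (95% interval -0.29 to 0.09). Its other probe sets gave -0.01 and 0.06. Eif4e3, a relative of eIF4E that binds the cap in another manner, had log2 signals of 9.51, 9.22 and 9.36 in control and 9.74, 9.65 and 9.47 in Sox17-GOF islets. Here the groups overlapped, and the log2 fold change was 0.26 (limma, adjusted p = 0.244). Eif4e1b, an eIF4E relative of oocytes, was at 0.21 with a wide interval of -0.16 to 0.58. Leaving out 1 array moved it from 0.08 (without Sox17-GOF replicate 3) and 0.12 (without control replicate 1) to 0.32 (without control replicate 2) and 0.36 (without Sox17-GOF replicate 1). The other probe set of Eif4e1b, of similar brightness, gave 0.17 (95% interval -0.02 to 0.36, adjusted p = 0.312 from limma). Its groups did not overlap, as for 11.3% of all genes in that direction. The scaffold genes Eif4g2 and Eif4g3 were both at 0.04.

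The eIF4E-binding proteins hold eIF4E away from eIF4G when mTORC1 is inactive. None of the 3 members passed the threshold. In all 3 the Sox17-GOF values lay below the control values without overlap, as for 14.2% of all genes, and the gaps were narrow. Eif4ebp1, also a known target of ATF4 in β cells under endoplasmic reticulum stress, had log2 signals of 7.86, 8.09 and 7.79 in control and 7.64, 7.40 and 7.71 in Sox17-GOF islets. The nearest samples of the 2 groups were 7.79 and 7.71. Its log2 fold change of -0.33 was the lowest of the 57 members (standard error 0.12, 95% interval -0.60 to -0.06, unadjusted p = 0.0237 and adjusted p = 0.178 from limma). Over the 14 alternatives its adjusted p ranged from 0.11 to 0.419.

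Eif4ebp2 showed very little spread, with 8.10, 8.12 and 8.10 in control and 8.03, 8.04 and 8.02 in Sox17-GOF islets. The difference was -0.08 on the log2 scale (adjusted p = 0.615 from limma). Eif4enif1, which encodes the eIF4E transporter that also carries mRNAs into processing bodies, was at 8.39, 8.46 and 8.35 in control and at 8.33, 8.20 and 8.16 in Sox17-GOF islets. That difference was -0.17, and the dimmer probe set of the gene gave -0.02. A probe set shared by Ankhd1 and Eif4ebp3 was at -0.27 (adjusted p = 0.265 from limma) and could not be assigned to either gene.

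**Figure D2:**
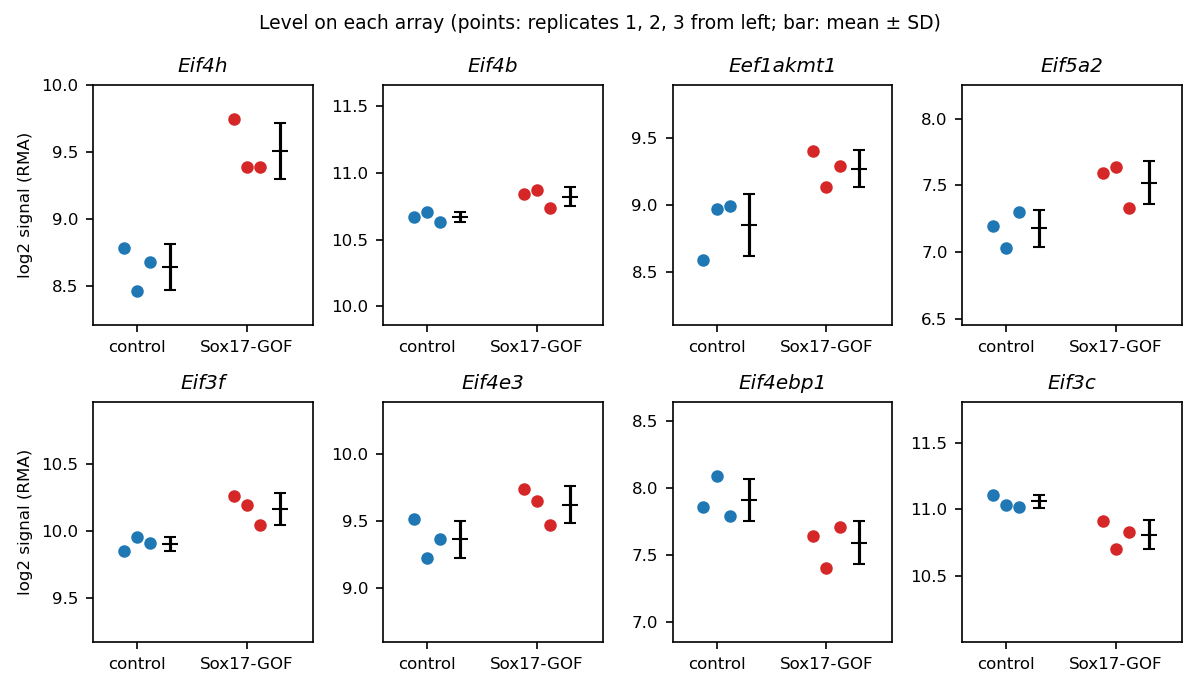
RMA log2 signal (vertical axis, each panel spanning the same 1.8 units) of 8 translation factors on each of the 6 arrays, control in blue and Sox17-GOF in red, with the mean and SD beside the points. The gap between groups is widest for Eif4h, and Eif4e3 is the only panel in which the groups overlap.

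Factors that select the start codon differed little. eIF1 and eIF1A open the small subunit for scanning, and their 4 measured relatives ranged from -0.15 for Eif1a to 0.02 for Eif1ax. In eIF2 the γ subunit is encoded by an X-linked and a Y-linked gene. Eif2s3x was at 0.01, and Eif2s3y at -0.17, with 8.62, 8.76 and 8.59 in control and 8.48, 8.50 and 8.49 in Sox17-GOF islets. Those groups did not overlap, but the difference did not pass the threshold (adjusted p = 0.30 from limma). Eif2s2, the β subunit, was at -0.15 with overlapping groups. Its dimmer probe set was at -0.23 with no overlap (unadjusted p = 0.0314, adjusted p = 0.209 from limma). Eif2a and Eif2d, which bring initiator tRNA to the ribosome by other routes, were at -0.03 and -0.11.

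eIF2B recharges eIF2 with GTP and is the complex that phosphorylated eIF2 blocks. Of its 5 subunit genes, 4 lay between -0.03 and 0.03. The exception was Eif2b1, the regulatory α subunit, with 8.49, 8.12 and 8.08 in control and 8.08, 7.86 and 7.94 in Sox17-GOF islets. Control replicate 1 stood above the rest, and the lowest control and the highest Sox17-GOF value were the same to 2 decimals. Its log2 fold change was -0.27 (limma, adjusted p = 0.298), and across the alternatives it ranged from -0.34 to -0.14, the latter without control replicate 1.

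eIF3 is the largest initiation factor, a ring-like assembly on the small subunit that holds the other factors in place. None of its 11 measured subunit genes passed the threshold, and the median log2 fold change was 0.01. Within the complex the subunits did not all lean the same way. Eif3a, Eif3b, Eif3c and Eif3d were at -0.17, -0.14, -0.24 and -0.18, whereas Eif3e, Eif3f, Eif3h and Eif3m were at 0.13, 0.26, 0.10 and 0.07. Eif3i, Eif3k and Eif3l lay between -0.07 and 0.05.

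The most distant subunits were Eif3c and Eif3f. Eif3c, a core subunit, had log2 signals of 11.11, 11.03 and 11.02 in control and 10.91, 10.70 and 10.83 in Sox17-GOF islets, with no overlap (standard error 0.08, unadjusted p = 0.0193, adjusted p = 0.159 from limma). Eif3f, a subunit with an MPN domain, had 9.85, 9.95 and 9.91 in control and 10.26, 10.19 and 10.04 in Sox17-GOF islets, again with no overlap (standard error 0.09, unadjusted p = 0.0172, adjusted p = 0.15 from limma). In Eif3d, which can itself bind the cap of some mRNAs, Sox17-GOF replicate 3 was lowest at 10.04. Without that array its log2 fold change was -0.09. In probe sets shared by Eif3j1 and Eif3j2 the differences were -0.21 and -0.14.

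**Figure D3:**
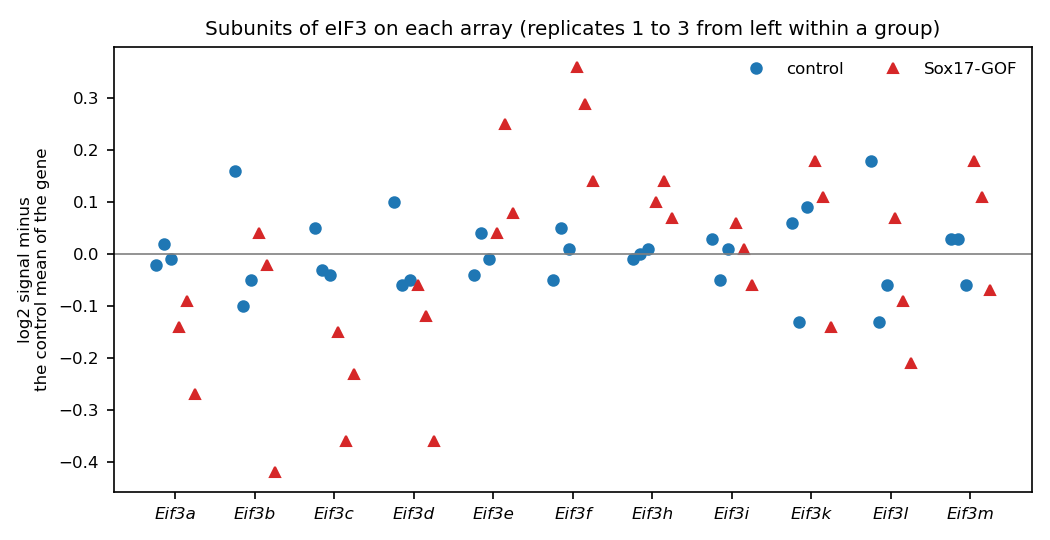
Log2 signal of the 11 measured eIF3 subunit genes on each array, minus the control mean of the gene (vertical axis), with control arrays as blue circles and Sox17-GOF arrays as red triangles. The Sox17-GOF arrays lie below the controls for Eif3a and Eif3c and above them for Eif3f and Eif3h. They also lie below for Eif3d, but its nearest samples of the groups were both at 10.34 to 2 decimals. No subunit passed the adjusted threshold.

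eIF5 triggers GTP hydrolysis at the start codon, eIF5B joins the large subunit, and eIF6 keeps free large subunits from joining. Their genes were at -0.09 for Eif5, -0.07 for Eif5b and 0.05 for Eif6. eIF5A helps the ribosome through difficult peptide bonds and is known for its hypusine residue, and its 2 genes differed in sign. Eif5a was at 9.77, 9.36 and 9.84 in control and 9.59, 9.40 and 9.33 in Sox17-GOF islets, a difference of -0.21 with overlapping groups, and its dimmer probe set gave -0.07. The difference was -0.37 without control replicate 2 and -0.12 without control replicate 3. Eif5a2, the paralog of narrower expression, was at 7.20, 7.03 and 7.30 in control and 7.59, 7.64 and 7.33 in Sox17-GOF islets. Its groups did not overlap, by a gap of 7.30 to 7.33, and its log2 fold change was 0.34 (standard error 0.11, unadjusted p = 0.0165, adjusted p = 0.146 from limma).

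All 5 genes of the eEF1 group had a log2 fold change above 0 and none passed the threshold. Eef1a1, the main tRNA carrier, was at 0.04 (95% interval -0.12 to 0.21). Eef1a2, the form of muscle and neurons, was at 7.59, 7.57 and 7.14 in control and 7.42, 7.16 and 8.0 in Sox17-GOF islets. Its arrays were widely scattered within each group, and the interval of -0.41 to 0.61 leaves its direction unresolved. The exchange factor genes Eef1b2 and Eef1d were at 0.11 and 0.02, and Eef1e1, whose product belongs to the multi-tRNA synthetase complex, was at 0.15. Eef2, the translocase, was at 11.55, 11.39 and 11.52 in control and 11.67, 11.74 and 11.56 in Sox17-GOF islets, a difference of 0.17 (adjusted p = 0.34 from limma). Eef2k, which encodes the kinase that inhibits eEF2, was at 0.04.

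Enzymes that methylate eEF1A and eEF2 carry their names and were members by the rule. Eef1akmt1, a lysine methyltransferase of eEF1A, had the highest log2 fold change after Eif4h. Its signals were 8.59, 8.97 and 8.99 in control and 9.40, 9.13 and 9.29 in Sox17-GOF islets. The groups did not overlap, and control replicate 1 was lower than the rest. The log2 fold change was 0.42 (standard error 0.13, 95% interval 0.12 to 0.72, unadjusted p = 0.0125, adjusted p = 0.123 from limma). The other 4 methyltransferases were below 0, from -0.22 for Eef1aknmt to -0.07 for Eef2kmt. Eef1aknmt was at -0.34 without control replicate 2, -0.12 without control replicate 3 and -0.10 without Sox17-GOF replicate 3.

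Sox17-GOF replicate 3 stood apart from the other arrays for these genes. It held the lowest of the 6 values for 26 of the 57 members (45.6%), and for 22.4% of all genes. The other arrays each held the lowest value for 4 to 7 members. Conversely, Sox17-GOF replicate 1 held the highest value for 14 members (24.6%), and for 18.4% of all genes. The median deviation of the members from their control means was 0.02, -0.03 and -0.09 in Sox17-GOF replicates 1, 2 and 3, where that over all genes was -0.01, -0.02 and -0.01.

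The same arrays were at the ends of the acinar and duct markers. The summed linear signal of the acinar markers was 38054 in Sox17-GOF replicate 1, 61718 in replicate 2 and 73264 in replicate 3, and that of the duct markers was 1622, 1875 and 2271. Stellate and fibroblast markers were also highest in replicate 3, at 896, 1354 and 1531. The duct markers did not move together. Krt7, the brightest of them, was lowest in replicate 3, with log2 signals of 10.26, 10.36 and 10.08 in Sox17-GOF islets. Krt19 (6.74, 7.07 and 9.13), Muc1 (6.85, 7.81 and 8.65), Sox9 and Cftr were highest there. The part of RNA from these cells in the lower values of the translation factors was not tested. Without replicate 3 Eif4h had a log2 fold change of 0.93 (adjusted p = 0.0192 from limma), and without replicate 1 one of 0.75 (adjusted p = 0.0217 from limma). Without replicate 1 the median of the members was -0.06, and without replicate 3 it was 0.01.

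**Figure D4:**
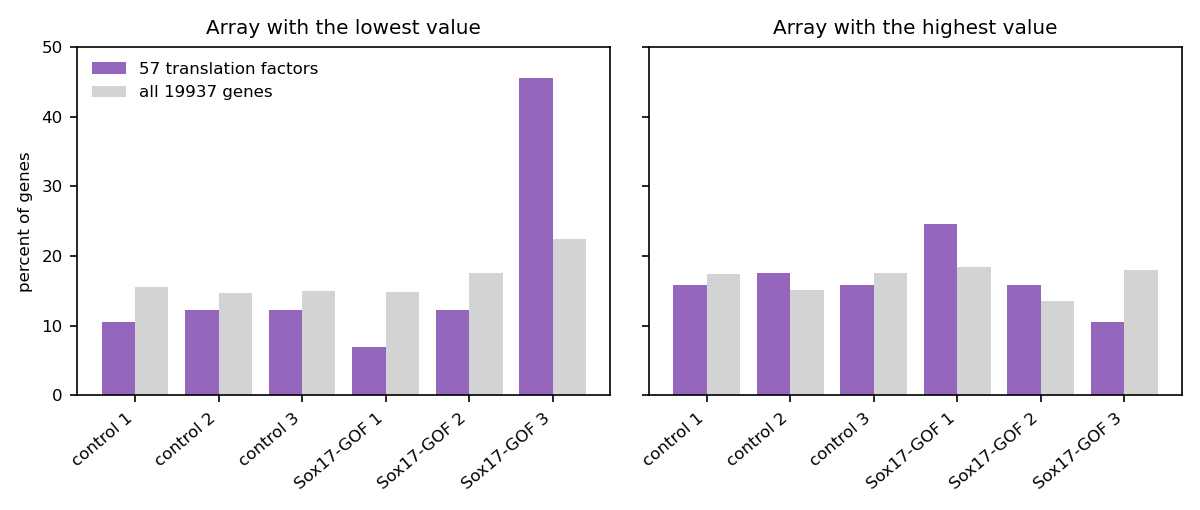
Share of genes (vertical axis, percent) for which each of the 6 arrays held the lowest (left) or the highest value (right), for the 57 translation factors in purple and for all genes in grey. Sox17-GOF replicate 3 held the lowest value for 45.6% of the translation factors and for 22.4% of all genes.

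Lists of genes that act on these factors or beside them gave a background for the members. Of the 6 genes for eIF2 kinases and eIF2 phosphatase subunits, none passed the threshold in either direction, and 2 had an unadjusted p under 0.05, both lower. Eif2ak3, which encodes PERK, the eIF2 kinase of the endoplasmic reticulum, was at -0.40 (adjusted p = 0.0898 from limma), with a control mean of 9.11 ± 0.17 and a Sox17-GOF mean of 8.71 ± 0.11 (SD, n = 3). The median of these 6 was -0.14.

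ATF4 is the transcription factor whose mRNA is translated when eIF2 is phosphorylated. The list of Atf4 and its targets was chosen with earlier results of these data known. Of its 14 genes, 4 fell and none rose, beside 2.44% and 2.77% of all genes, and the median was -0.35. They were Vldlr, a lipoprotein receptor (-0.99, adjusted p = 0.00195 from limma), Chac1, a glutathione-degrading enzyme (-0.74, adjusted p = 0.0135), Ddit3, the stress factor CHOP (-0.73, adjusted p = 0.00472), and Asns, asparagine synthetase (-0.50, adjusted p = 0.0246). Atf4 itself was at -0.57 (adjusted p = 0.0704). Eif4ebp1, a member and an ATF4 target, was at -0.33 as given above and did not pass the threshold (adjusted p = 0.178 from limma). A link between its level and that of Atf4 was not tested.

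In the other lists no gene passed the threshold in either direction. The counts at an unadjusted p under 0.05 that follow stand beside 8.93% of all genes higher and 10.7% lower. The list of mTORC1 and the kinases of cap-dependent translation also held regulators of mTORC1 and the genes Rps6, Larp1 and Pdcd4. Its 14 measured genes had a median of -0.13 and ranged from -0.50 to 0.13, and 4 of them had an unadjusted p under 0.05, all lower. The list of poly(A)-binding proteins and partners had 8 measured genes. It also held the helicase genes Ddx3x and Dhx29 and the recycling factor genes Denr and Mcts1. Its median was 0.02, with Paip2, an inhibitor of poly(A)-binding protein, at 0.30 (adjusted p = 0.0593 from limma). The 3 genes at an unadjusted p under 0.05 were Paip2 and Mcts1, which were higher, and Denr, which was lower. The 6 termination and recycling factors all lay below 0 with a median of -0.15, of which 2 had an unadjusted p under 0.05. The 9 mitochondrial translation factors had a median of -0.21, with 8 of 9 below 0 and 4 at an unadjusted p under 0.05. The 3 factors of hypusine and selenocysteine had a median of 0.00 and none at an unadjusted p under 0.05.

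**Figure D5:**
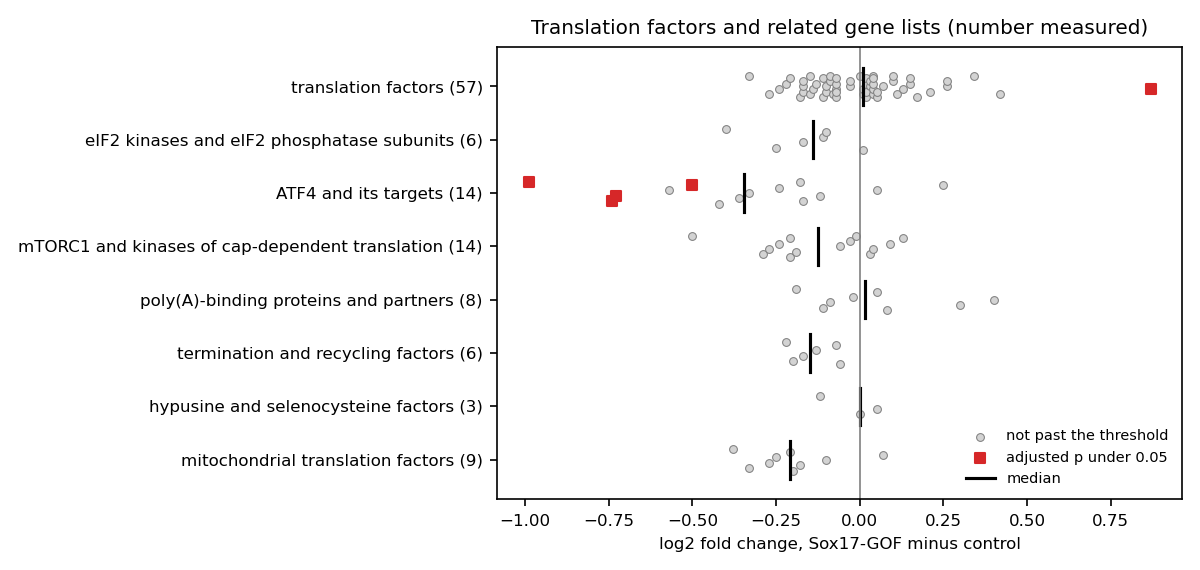
Log2 fold change between Sox17-GOF and control islets (horizontal axis) of each translation factor and of each measured gene in 7 related lists, with red squares for an adjusted p under 0.05 and a black bar for the median of the list. Apart from Eif4h, the genes past the threshold are the 4 lower genes in the list of Atf4 and its targets.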

How the data were processed

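RNA of islets from 3 control and 3 Sox17-GOF samples was amplified (NuGEN) and hybridized to Affymetrix Mouse Gene ST arrays. The authors made the deposited log2 values by RMA, which corrects for background, gives the probes of all arrays 1 distribution and fits a level per probe set; the methods name GeneSpring and the submitters' processing notes Affymetrix Expression Console. A shift shared by most genes would not be seen.

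The genotypes were compared in limma 3.58.1 (R 4.3.3; lmFit, then eBayes with no trend) over the 22961 of 34760 probe sets with a gene symbol. Benjamini-Hochberg adjustment covered all of these, at a threshold of 0.05 and with no filter on dim signals. Single differences were compared by exact permutation tests, two-sided. The number of arrays limits the precision.

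The members and lists were chosen with earlier results of these data known. Named were members past the threshold, Eif4ebp1, Eif4h, the 12 largest differences, the remaining members of a role group with a called gene, the brightest and dimmest member, and up to 4 called genes of each other list; others are named to account for every role. The fit was repeated with weighted arrays, with an intensity trend, after quantile normalization or median centring, with every probe set, without dim ones, with a replicate block, on probe sets averaged per gene, by the methods' t-test and without each array in turn. A protein comparison was planned and not run. Of the 57 members, 44 had a promoter in the RefSeq table.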

Additional observations from a re-analysis of the deposited data

How the results depend on the processing

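Eif4h was the called member under 13 of the 14 alternatives in which it was refitted, with log2 fold changes of 0.75 to 0.94 and adjusted p-values of 0.00692 to 0.0557 from limma. The exception was the fit without control replicate 2 (0.78, adjusted p = 0.0557). Leaving out each array in turn, 0 to 1 members were higher and 0 were lower, and the median log2 fold change of the members ranged from -0.06 (without Sox17-GOF replicate 1) to 0.01. The log2 fold change of Sox17 then ranged from 0.59 to 0.71. The methods' t-test counted 1 member higher at 1.3-fold without adjustment and 0 after Benjamini-Hochberg adjustment. No member was lower under any alternative. Samples with the same replicate number did not deviate together (correlations of 0.05, -0.04 and -0.05 over all genes), and 2 of the 6 samples correlated best with their own number. With the replicate block 1 member was higher, Eif4h (adjusted p = 0.0175 from limma), 0 were lower and the median was 0.01. The 12 named members kept their direction under all 14 alternatives. Of the members, 1 had a mean below the 20th percentile of all values, where differences are compressed. For 8 members a gene had more than 1 probe set of a single symbol (10 further ones), and 10 probe sets shared with other symbols were left out.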

Other observations

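The genes beside Eif4h in the RefSeq order did not pass the threshold. Rfc2 and Lat2 on one side were at -0.07 and -0.16, and Limk1 and Eln on the other at 0.11 and 0.25 (adjusted p = 0.111 for Eln from limma).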
